A study of Mus musculus with 6 samples.

Results

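Cells of the mouse line C3H10T1/2, fibroblast-like mesenchymal cells with the capacity to form muscle, fat, cartilage and bone, received the synthetic glucocorticoid dexamethasone at 1 µM and were collected 90 minutes later. The control cultures were given the solvent DMSO (the vehicle). There were 3 dexamethasone and 3 vehicle samples, described as biological replicates, and each was labelled with Cy3 and set against a Cy5-labelled RNA pool on an array of its own. Per the labels the pool held RNA of C3H10T1/2 cells given DMSO, dexamethasone or myostatin, so myostatin-treated cells entered the denominator of every ratio, whereas the design text mentions just vehicle and treated cells. The genes described here are 8 regulators of skeletal muscle formation: the myogenic factors Myod1, Myf5, Myf6 and Myog, the MEF2 factors Mef2a, Mef2c and Mef2d, and myostatin, Mstn. They were taken by gene symbol, which gave 14 of the 38467 probes on the array; 4 probes belong to Mef2a, 3 to Mef2c, 2 to Mef2d and 1 to each other gene.

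The myogenic factors are basic helix-loop-helix proteins that bind E boxes as dimers with E proteins and switch on muscle genes. Myod1 and Myf5 commit a cell to the muscle lineage, Myog drives its differentiation, and Myf6 acts in late muscle development. MEF2 factors do not start the programme alone but act with the myogenic factors on muscle promoters. Myostatin is a secreted ligand of the TGF-beta family that limits muscle growth through activin receptors and Smad proteins. C3H10T1/2 is the line in which forced MyoD was found to turn fibroblasts into muscle cells, and glucocorticoids are known for wasting of adult muscle.

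The clearest separation between the groups was at Myog, so the stretch upstream of its start is shown. It covers the 250 bases before the RefSeq start of Myog on the plus strand of mouse chromosome 1 (GRCm38.p6, chr1:134289754-134290003), with E boxes (CANNTG) and the A/T-rich core CTANNNNTA, which lies inside many MEF2 sites, in capitals.
Myog: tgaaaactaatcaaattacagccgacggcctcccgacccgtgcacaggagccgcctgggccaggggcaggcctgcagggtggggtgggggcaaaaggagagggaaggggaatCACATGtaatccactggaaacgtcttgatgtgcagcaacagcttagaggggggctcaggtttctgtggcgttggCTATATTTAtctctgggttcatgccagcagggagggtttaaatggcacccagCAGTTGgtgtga
The E boxes begin 138 and 12 bases before the start and the A/T-rich core 64 bases before it, and none of the 3 overlaps another. On both strands, CANNTG was found in 66.2% and CTANNNNTA in 19.0% of the 32851 windows of this length. The hexamer of glucocorticoid receptor sites, AGAACA, present in 16.1% of windows, and its full inverted repeat with a spacer of 3 bases, present in 0.00913%, were not found in the Myog window. Windows were given for 6 of the 8 genes and there were 8 in all, 3 of them for Mef2c. AGAACA was found in 1 of the 8, a Mef2c window, and the inverted repeat in none of them.

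The deposited values are read as log2 ratios of sample over pool; this reading of the scale and the direction is likely but not settled. The labels give the dyes and not the order of the ratio, and the usual order of limma, the package named by the submitters, would be pool over sample. The basis for the chosen direction is that 7 of 11 probes of 6 textbook glucocorticoid-induced genes were higher with dexamethasone on every array than on any vehicle array, and 0 of 10 with 6 values were lower in that sense. Dusp1 stood at 1.32, 1.55 and 1.52 with dexamethasone, against -2.84, -2.67 and -2.88 with vehicle, and Fkbp5 at 1.30, 0.20 and 1.23, against -3.02, -3.06 and -3.00. The remaining 3 probes of this list with 6 values, 2 of Tsc22d3 and 1 of Sgk1, overlapped between groups, and Zbtb16 had 1 value missing and a difference of -0.40. If the ratio ran from pool to sample instead, "higher" and "lower" would change places throughout, and 2 probes of the muscle regulators would be higher and 4 lower without overlap.

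The arrays were uneven. Missing values numbered 1695, 2837 and 4290 on the dexamethasone arrays (replicates 1, 2 and 3), against 552, 825 and 932 on the vehicle arrays, and the array medians ran from -0.12 to 0.57, against -0.12 to 0.16. Dexamethasone 1 went with vehicle 1 and 2 (Spearman coefficients of 0.524 and 0.397 over all probes), while dexamethasone 2 and 3 went with vehicle 3 (0.397 and 0.34). The lowest coefficient was -0.33, between dexamethasone 3 and vehicle 2. Within the dexamethasone group, replicate 1 had -0.225 with replicate 2 and -0.27 with replicate 3, and the latter arrays had 0.574 with each other. Within the vehicle group, replicate 3 had 0.073 with replicate 1 and 0.072 with replicate 2, which had 0.546 with each other. The labels name no batch; these 2 sets of arrays were seen in the values, and results within each set are given below. A value was marked as low signal where it was missing, equal at 3 decimals to the log2 of one whole number over another, both between 1 and 10, or beyond 10 in size. At least 1 such mark fell on 39.9% of all probes and on 3 of the 14 described here. Marks fell on 8.33% of 24 probes of mesenchymal genes such as Col1a1 and Vim, on 55.0% of 80 probes of muscle structural genes and on 65.4% of 26 probes of blood, endothelial, epithelial and neural genes. A ratio against a pool gives no level, so the presence of a cell type cannot be read from it beyond these marks, and fewer cells expressing a gene cannot be told apart from less RNA per cell.

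None of the muscle regulators passed the test across all probes. limma called 0 of the 13 fitted probes and 0 of all 36465 fitted (0%) at a Benjamini-Hochberg adjusted p under 0.05. At an unadjusted p under 0.05 there were 3 probes higher and 2 lower with dexamethasone, where all fitted probes gave 4.45% higher and 1.36% lower (5.81% in either direction). Of the 12 probes with values on all arrays, 4 had every dexamethasone value above every vehicle value and 2 had every one below, against 10.3% and 8.42% of all probes. The 6 are those of Myod1 and Myog, 1 of Mef2d and all 3 of Mef2c, which did not run the same way. Among the 11 probes without a low-signal mark, tested with the other unmarked probes, limma called 0 after adjustment, against 0.19% of all unmarked probes (0.177% higher, 0.013% lower). By unadjusted p, 3 were again higher and 2 lower, against 5.16% and 2.99% of unmarked probes (8.16% in either direction). The 6 probes whose groups did not overlap were all unmarked, and unmarked probes did so in 10.7% of cases with dexamethasone higher and 10.2% with it lower. The median difference was 0.13 over the 13 probes and 0.24 over all fitted probes. With the median of each array set to 0, these were -0.18 and -0.06, so the median of the 13 changed sign. The overall shift thus depends on the scaling, and centred values are given where they matter.

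**Figure D1:**
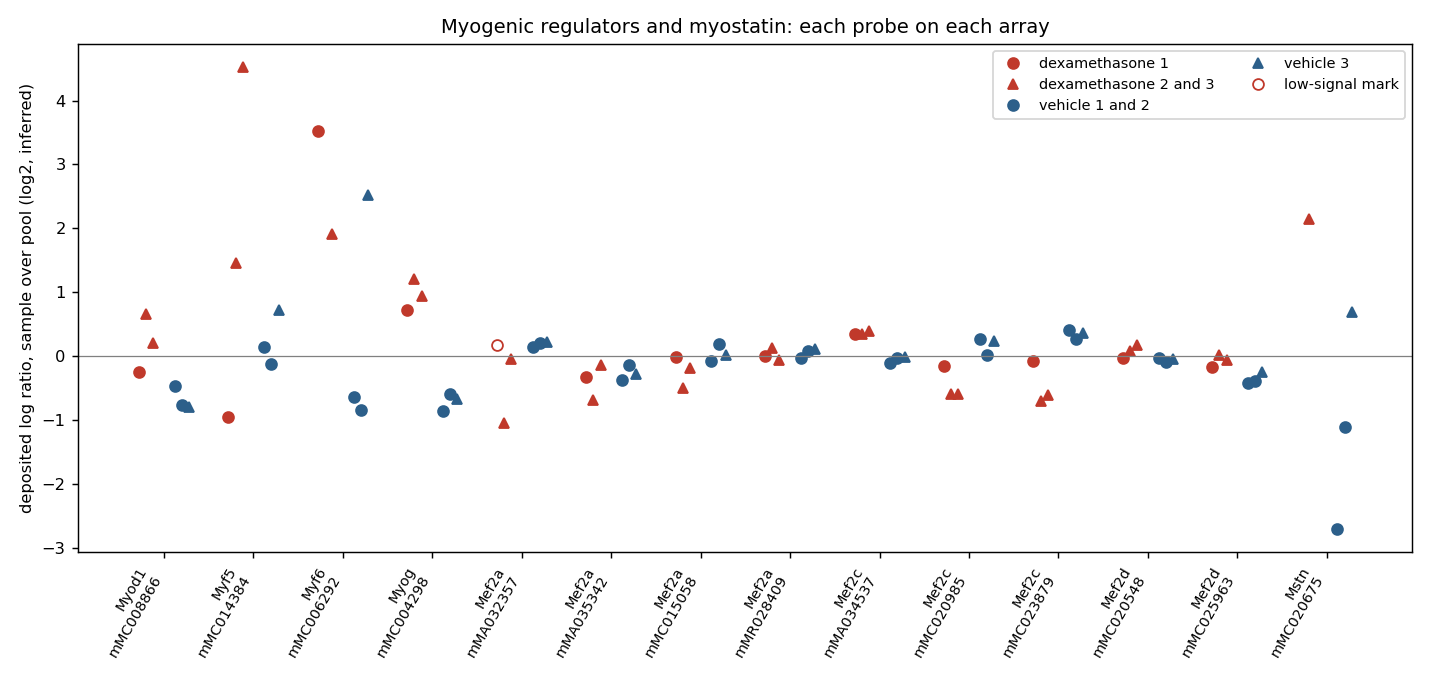
The vertical axis gives the deposited log ratio (log2 scale, inferred) of each of the 14 probes on each array, dexamethasone in red left of vehicle in blue; circles are dexamethasone 1, vehicle 1 and vehicle 2, triangles are dexamethasone 2, dexamethasone 3 and vehicle 3, and an open symbol has a low-signal mark. The Myog values lie between 0.72 and 1.198 with dexamethasone and between -0.86 and -0.60 with vehicle, while those of Myf5, Myf6 and Mstn are scattered.

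Myog, the factor of muscle differentiation, had log2 ratios of 0.72, 1.198 and 0.94 with dexamethasone, against -0.86, -0.60 and -0.68 with vehicle. All 3 dexamethasone arrays were above the pool and all 3 vehicle arrays below it. The means were 0.95 ± 0.24 and -0.72 ± 0.13 (SD, n = 3 each), a difference of 1.67 ± 0.20 (SE), or 3.17-fold. The gap between the groups was larger than the spread within either. Myog ranked 75th of the 36465 probes by p, with a limma adjusted p of 0.175, and 59th of the 23112 probes without a low-signal mark, with an adjusted p of 0.0655. Over 23 alternatives the adjusted p ran from 0.0308 to 0.965, and the single value under 0.05 came without low-signal probes and without dexamethasone replicate 1. The unadjusted limma p was at most 0.0157 in all of them. The difference was 1.45 between dexamethasone 1 and the mean of vehicle 1 and 2, and 1.75 between the mean of dexamethasone 2 and 3 and vehicle 3. It was 1.36 after median centring, and the groups still did not overlap.

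Myod1, which can start the muscle programme in this line, had log2 ratios of -0.25, 0.65 and 0.20 with dexamethasone, against -0.47, -0.77 and -0.80 with vehicle. The groups did not overlap, but dexamethasone 1 lay closer to vehicle 1 than to dexamethasone 2. The difference was 0.88 ± 0.29 (SE), or 1.84-fold, with a 95% interval from 0.14 to 1.61 and a limma adjusted p of 0.694. Within the 2 sets of arrays the difference was 0.36 (dexamethasone 1 against vehicle 1 and 2) and 1.23 (dexamethasone 2 and 3 against vehicle 3), so its size depended on the set. It was 0.57 after median centring, with the groups still apart.

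Myf5, the partner of Myod1 in lineage commitment, had log2 ratios of -0.96, 1.46 and 4.52 with dexamethasone, against 0.15, -0.12 and 0.72 with vehicle. The dexamethasone values spread over more than the whole vehicle range on both sides. The difference of 1.43 had a 95% interval from -2.23 to 5.09 (limma adjusted p = 0.719). It was 0.006 without dexamethasone 3 and 2.75 without dexamethasone 1, and it was -0.97 in dexamethasone 1 against vehicle 1 and 2 and 2.28 in the other arrays. Myf6, the late myogenic factor, had values of 3.52 and 1.91 on dexamethasone 1 and 3 and none on dexamethasone 2, against -0.64, -0.85 and 2.52 with vehicle. Its difference of 2.37, fitted on 2 dexamethasone and 3 vehicle values, had an interval from -1.29 to 6.02 (limma adjusted p = 0.694).

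Mstn, the myostatin gene, had a single dexamethasone value of 2.15, on dexamethasone 2, against -2.71, -1.12 and 0.69 with vehicle. No difference was fitted for it, since at least 2 values per group were required. The vehicle values alone spanned more than those of any other probe of the 8 genes. Several of these scattered values equal ratios of whole numbers just above the limit of 10 used for the mark. The Myf5 value on dexamethasone 3 equals the log2 of 23 to 1, and those of Myf6 equal 23 to 2 on dexamethasone 1, 15 to 4 on dexamethasone 3 and 23 to 4 on vehicle 3. Values matching a ratio of whole numbers up to 30 made up 40.8% of those on dexamethasone 3, 19.0% on dexamethasone 1 and 15.8% on vehicle 1. Among probes without a low-signal mark the share was 15.1% on dexamethasone 1. On dexamethasone 3 the share among unmarked probes was below 40.8% but above the 21.1% of dexamethasone 2. A match alone is thus not rare. Myog, whose probe had no mark, matched 23 to 14 on dexamethasone 1 and 23 to 12 on dexamethasone 3. What both matches at Myog mean was not tested. Of the 8 genes, Myf6 and Mstn had missing values.

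**Figure D2:**
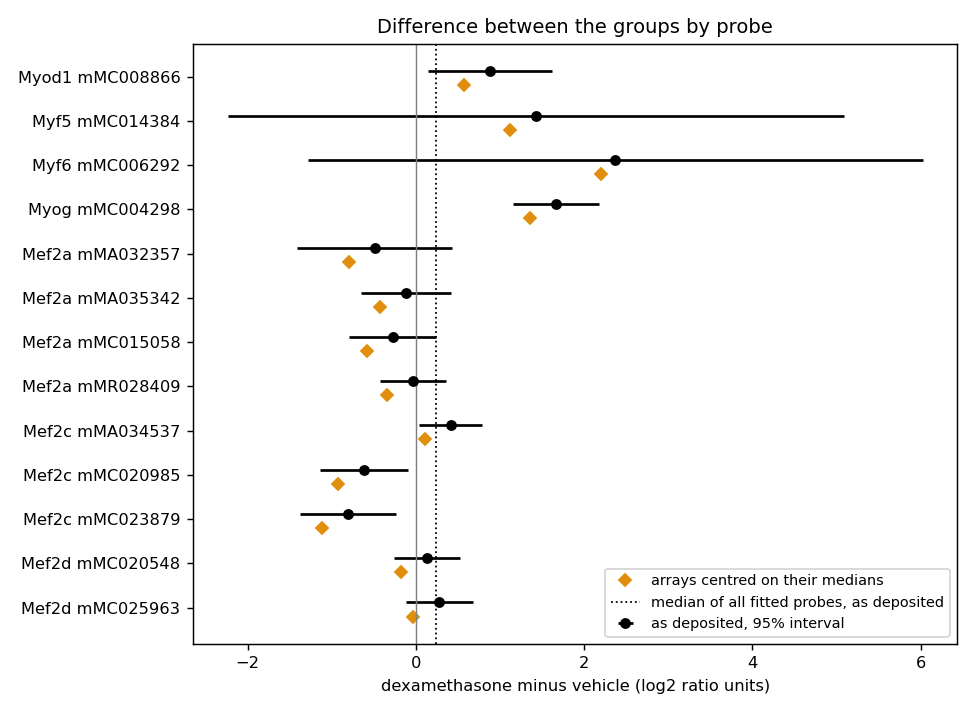
The horizontal axis gives the dexamethasone minus vehicle difference in log2 ratio units for the 13 fitted probes, black points with 95% intervals from limma as deposited and orange diamonds after median centring; the dotted line is the median of all fitted probes, 0.24. Myog has the interval farthest from 0, from 1.16 to 2.18, and the intervals of Myf5 and Myf6 are the widest.

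Mef2c, a MEF2 factor of skeletal and cardiac muscle development, was measured by 3 probes, and they went in opposite directions. Probe mMA034537 had log2 ratios of 0.34, 0.34 and 0.39 with dexamethasone, against -0.12, -0.03 and -0.02 with vehicle. Its values on dexamethasone 1 and 2 were the same, 0.337, and equal the log2 of 24 to 19. The probe had no low-signal mark, and what these matches mean was not tested. Probe mMC020985 had -0.16, -0.60 and -0.60 with dexamethasone, against 0.26, 0.01 and 0.23 with vehicle. Probe mMC023879 had -0.09, -0.70 and -0.61 with dexamethasone, against 0.40, 0.26 and 0.37 with vehicle. In each of the 3 the groups did not overlap, with dexamethasone above vehicle in the first and below it in the other two.

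The difference of mMA034537 was 0.41 ± 0.14 (SE; limma adjusted p = 0.694), and it was 0.10 after median centring, where the groups overlapped. Those of mMC020985 and mMC023879 were -0.62 ± 0.20 and -0.81 ± 0.22 (limma adjusted p of 0.694 and 0.672), or 1.54-fold and 1.75-fold lower, and were -0.93 and -1.12 after centring, still without overlap. Their size differed between the sets of arrays: -0.30 and -0.42 in dexamethasone 1 against vehicle 1 and 2, and -0.83 and -1.02 in dexamethasone 2 and 3 against vehicle 3. A shift of a whole array cancels when one probe is subtracted from another on the same array. Probe mMA034537 minus the mean of the other two was 0.46, 0.99 and 1.00 with dexamethasone, against -0.45, -0.17 and -0.31 with vehicle. The groups differed by 1.13; the probes were set against each other by the signs already seen, so this is a description with no test. In the platform annotation mMA034537 and mMC020985 share both accessions of the first, a RefSeq transcript among them, and neither shares any with mMC023879. Which part of the gene each probe matches is not analysed here. Averaged over its probes, Mef2c differed by -0.34 (limma adjusted p = 0.732), a value that hides the opposite signs.

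Mef2a and Mef2d are MEF2 factors found in many tissues. For Mef2a the 4 differences were -0.49, -0.12, -0.27 and -0.03 (probes mMA032357, mMA035342, mMC015058 and mMR028409), all with overlapping groups and with 95% intervals that included 0. After median centring the same probes gave -0.80, -0.43, -0.58 and -0.34, none with an unadjusted limma p under 0.05, so the size of the Mef2a differences depended on the scaling. The narrowest of the intervals, that of mMR028409, ran from -0.42 to 0.36, and this probe had 0.00, 0.12 and -0.06 with dexamethasone, against -0.03, 0.07 and 0.12 with vehicle. The largest, at mMA032357, rested on dexamethasone 2: its values were 0.17, -1.04 and -0.04 with dexamethasone, against 0.14, 0.20 and 0.22 with vehicle, and the first of these carries a low-signal mark.

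For Mef2d, probe mMC025963 had -0.17, 0.01 and -0.07 with dexamethasone, against -0.42, -0.39 and -0.25 with vehicle, without overlap. Its difference was 0.28 ± 0.15 (SE, limma adjusted p = 0.694), and it was -0.03 after median centring. The overall shift was 0.24 over all fitted probes and 0.12 over those without a low-signal mark. Probe mMC020548 had -0.04, 0.07 and 0.18, against -0.03, -0.10 and -0.04, with overlap, and its difference of 0.13 became -0.18 after centring. The sign of mMC020548 thus depended on the scaling. For mMC025963 the difference was near 0 after median centring and 0.22 after quantile normalization.

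**Figure D3:**
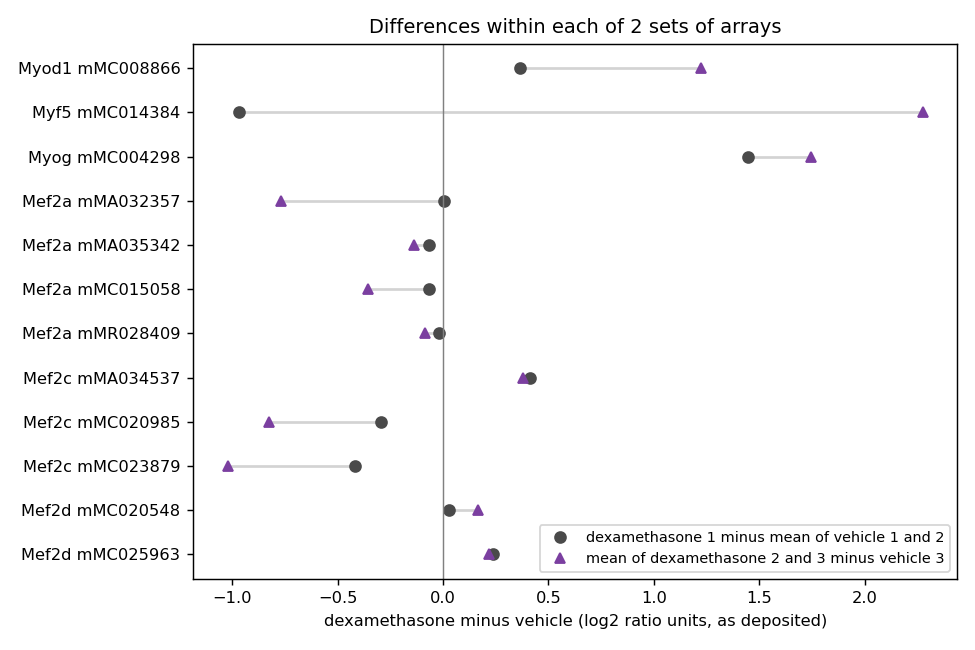
The horizontal axis gives the difference in log2 ratio units, as deposited, within each of the 2 sets of arrays for the 12 probes with values on all arrays; circles are dexamethasone 1 minus the mean of vehicle 1 and 2, triangles the mean of dexamethasone 2 and 3 minus vehicle 3. Myog lies at 1.45 and 1.75, Mef2c probe mMA034537 at 0.41 and 0.38, and Myf5 on opposite sides of 0.

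Among all probes with a single symbol and no low-signal mark, those nearest to Myog over the 6 arrays, by the root mean square difference in log2 ratio, were Vcan (0.076), which encodes the matrix proteoglycan versican, Zfp36 (0.109), an mRNA-decay factor, and Tob2 (0.141), a member of the Tob/BTG family. Vcan had 0.57, 1.13 and 0.92 with dexamethasone, against -0.93, -0.59 and -0.74 with vehicle. The nearest to Myod1 were Uchl1 (0.059), a ubiquitin hydrolase gene, Cast (0.133), the calpain inhibitor calpastatin, and Enah (0.140), an actin regulator. For Mstn, which had values on 4 arrays, they were Klhdc9 (0.125), the olfactory receptor gene Olfr933 (0.273) and Dmrta1 (0.326). With 18985 candidates for Myog and so few arrays, near matches are a description of these arrays only.

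The other genes of the programme gave few clear differences. In the fit over all probes limma called 0 of the 219 fitted probes in 5 lists of the muscle and myostatin programme after adjustment. By unadjusted p, 16 were higher and 9 lower; the shares over all fitted probes, against which this and the counts of the single lists below are to be read, were 4.45% and 1.36%. After low-signal probes were left out, 3 of their probes passed, where all such probes gave 0.19%: Tead4 probe mMR027092, Klf5 and Ep300. Tead4, a transcription factor of the Hippo pathway that also acts in muscle differentiation, had 0.67, 0.62 and 0.68 with dexamethasone, against -1.10, -1.12 and -1.09 with vehicle. It rose 3.39-fold in that fit (adjusted p = 0.0273). Klf5, a zinc-finger factor, rose 3.10-fold and Ep300, a histone acetyltransferase that serves as coactivator for MyoD and MEF2, 2.75-fold (adjusted p of 0.0435 each). The second Tead4 probe chosen by the naming rule differed by 1.36 ± 0.31 (SE), also higher without overlap. Other probes of Klf5 and Ep300 did not show it. The 2 further Klf5 probes differed by -0.08 and 1.36, both with overlap, and were scattered, with vehicle SDs of 2.66 and 2.95. The further Ep300 probe differed by 0.13, with overlap. The count of all probes that passed in that fit, 44, ran from 0 to 1297 when an array was also left out: leaving out dexamethasone 1 gave 1297, leaving out dexamethasone 2 gave 3, and each of the other 4 arrays gave 0. It was 1 after median centring.

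Of 23 probes for partners and inhibitors of MyoD, 22 were fitted and 0 passed. By unadjusted p, 4 were higher and 3 lower (4.45% and 1.36% of all fitted probes). Their median difference was 0.09 as deposited and -0.22 after median centring. Of the 19 unmarked ones, 3 were higher and 4 lower in the fit without low-signal probes (5.16% and 2.99% of unmarked probes). Snai1, a repressor of E boxes, had 0.52, 0.71 and 0.94 with dexamethasone, against -0.55, -0.72 and -0.57 with vehicle (difference 1.34 ± 0.18, SE; limma adjusted p = 0.205). Id4, whose protein sequesters E proteins, differed by 0.89 ± 0.15 (adjusted p = 0.296). Twist1, an inhibitor of MyoD and MEF2, had -0.24, -1.04 and -0.63, against 0.33, 0.38 and 0.32 (difference -0.98 ± 0.25, adjusted p = 0.612). The remaining 4 in the fit over all probes were named after their values were seen. They were both probes of Id1 (1.05 and 1.14), Snai2 (-0.58) and a probe of Zeb1 (-0.47). The other Zeb1 probe differed by 2.295 with overlapping groups. Id4 and Id1 thus lay above vehicle while Twist1 lay below it, and all are known as inhibitors of MyoD. The other fitted Id and Twist probes did not all go with them. Id3 differed by 0.57 without overlap, while Id2 differed by -0.40 and Twist2 by -0.05, both with overlapping groups.

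Of the 49 probes for the myostatin pathway, 0 passed, and by unadjusted p 3 were higher and 6 lower (4.45% and 1.36% of all fitted probes). Of the 37 unmarked ones, 3 were higher and 6 lower in the fit without low-signal probes (5.16% and 2.99% of unmarked probes). The median difference of the 49 was 0.16 as deposited, -0.07 over the unmarked probes and -0.15 after median centring, so its sign depended on both. Acvr1b, a type I activin receptor that myostatin can use, had 0.49, 1.01 and 0.82 with dexamethasone, against -0.15, -0.22 and -0.14 with vehicle (difference 0.94 ± 0.20, SE; limma adjusted p = 0.421). The 3 other Acvr1b probes differed by 0.90, 0.88 and -2.50, and the average over the 4 probes was 0.06 (adjusted p = 0.974). Inhba, the activin A subunit, had -0.64, -1.05 and -0.62, against 0.01, -0.06 and 0.05 (difference -0.77 ± 0.19, adjusted p = 0.571). The antagonist gene Grem1, best known for blocking BMPs, differed by -1.05 ± 0.18 (adjusted p = 0.293).

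The rest of these 9 probes were named after their values were seen. Fst, which encodes the myostatin antagonist follistatin, had 0.72, -0.26 and 0.96 with dexamethasone, against -0.51, -0.64 and -0.48 with vehicle, a difference of 1.02. Smad3, which carries the signal of myostatin to the nucleus, had -0.29, -0.31 and -0.23, against 0.24, 0.24 and 0.32, a difference of -0.54. The 2 probes of Fbxo32, a ubiquitin ligase of muscle atrophy, differed by -0.77 and -1.36, and a probe of Foxo1, a factor that switches on atrophy genes, by -0.72, while the other Foxo1 probe, with 1 value missing, differed by 0.54. None of these passed after adjustment.

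Of the 49 probes for MEF2 cofactors and regulators, by unadjusted p 3 were higher and 0 lower (4.45% and 1.36% of all fitted probes). Of the 38 unmarked ones, 4 were higher and 3 lower in the fit without low-signal probes (5.16% and 2.99% of unmarked probes). The median difference of the 49 was 0.34 as deposited and 0.04 after median centring. It was -0.17 for the unmarked probes after centring. The 3 in the fit over all probes were the Tead4 and Ep300 probes above. Of 27 fitted probes for regulators upstream of the myogenic factors, 1 Klf5 probe was higher and 0 were lower by unadjusted p (4.45% and 1.36% of all fitted probes), with a median of 0.37 as deposited and 0.06 after median centring. The next by p among the unmarked were 2 probes of Nfix, a factor of fetal myogenesis, at 0.36 and 0.79 (limma adjusted p of 0.694 each).

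Muscle structural genes, the targets of these factors, had a median difference of 0.74 over 72 fitted probes as deposited and 0.43 after median centring. By unadjusted p, 5 were higher and 0 lower (4.45% and 1.36% of all fitted probes), and 0 passed adjustment. The 5, named after their values were seen, were probes of Actc1, Ryr1, Mb, Ttn and Myh1, and each had a low-signal mark on at least 1 array. The 3 unmarked probes with the smallest p were the troponin gene Tnnt1 (0.34 ± 0.15, SE), the synapse kinase gene Musk (1.39 ± 0.64) and the troponin gene Tnni2 (2.525 ± 1.203; limma adjusted p of 0.694 each). Tnni2 had -0.25, 4.15 and 1.25 with dexamethasone, against -0.92, -1.40 and -0.10 with vehicle. By array, the medians of the structural list were -0.45, 1.02 and 1.35 with dexamethasone, against -0.35, -0.45 and 0.27 with vehicle. The list was thus high on dexamethasone 2 and 3 and not on dexamethasone 1. The medians of all probes were also highest on dexamethasone 2 and 3. They were -0.12, 0.57 and 0.41 with dexamethasone, against -0.10, -0.12 and 0.16 with vehicle.

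The blood, endothelial, epithelial and neural genes had array medians of -0.55, 1.58 and 1.22 with dexamethasone, against -0.34, -0.62 and 0.27 with vehicle, likewise highest on dexamethasone 2 and 3. Their median difference was 1.02 over 25 fitted probes as deposited and 0.71 after median centring. By unadjusted p, 3 were higher (Syp, Cd3e and a second probe of Lyz2, named after their values were seen) and 0 lower, and 0 passed adjustment. Of the unmarked ones, a probe of Syp differed by 1.02 ± 0.20 and its other probe by -0.20 ± 0.19, the first Lyz2 probe by 2.50 ± 1.29 and Krt18 by 1.25 ± 0.75 (SE). All fitted probes with at least 1 low-signal mark had a median difference of 0.63, and those without any had 0.12. The mesenchymal list had a median of -0.46 over 24 probes as deposited and -0.77 after median centring, with 0 at an unadjusted p under 0.05 in either direction. Of these probes 12 were of Vim, all below 0, while Thy1 (0.39 and 2.17) and Pdgfra (0.39) lay above it. The array medians of the list were 0.12, -0.05 and -0.32 with dexamethasone, against 0.04, 0.59 and 0.63 with vehicle. Their 3 smallest p were at 2 probes of Vim (-0.98 and -0.70) and 1 of Pdgfrb (-0.46). The part of low signal in the medians of the muscle structural genes was not tested. Myog itself had no mark, but its values on dexamethasone 1 and 3 matched 23 to 14 and 23 to 12. The part of low signal in its difference was not tested either.

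**Figure D4:**
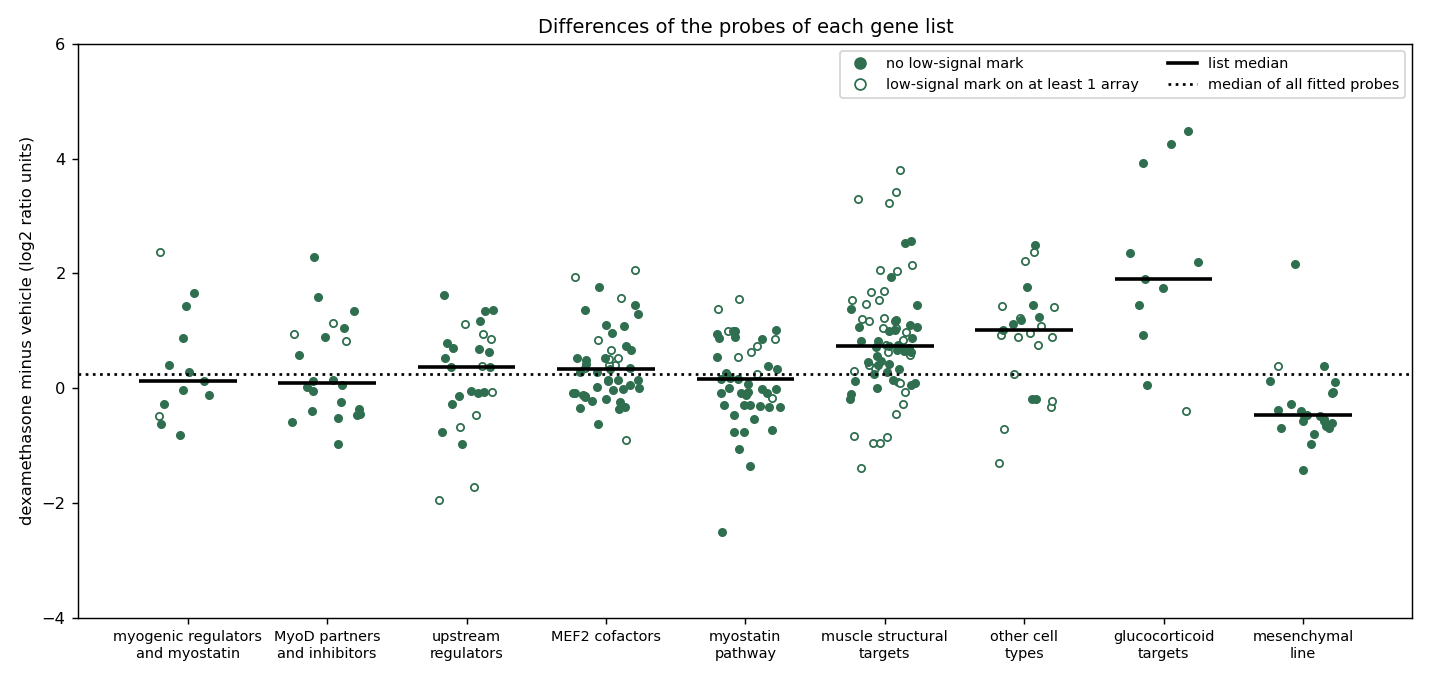
The vertical axis gives the dexamethasone minus vehicle difference in log2 ratio units for each fitted probe of each gene list, with bars at the list medians and a dotted line at the median of all fitted probes, 0.24; open circles have a low-signal mark. The axis runs from -4 to 6 and leaves out 1 probe of Inhbb, whose value on dexamethasone 2 was 521.556. The muscle structural genes (0.74) and the genes of other cell types (1.02) have high medians and many open circles.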

How the data were processed

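Per the submitters' processing notes, the authors used limma; how they corrected background, normalized and filtered is not stated there. The deposited values are treated as a score whose log2 scale is inferred: values of both signs, written to 3 decimals, often equal log2 ratios of small whole numbers, but on 4 arrays some exceed 100 in size. Scanner intensities were not used here. Symbols came from the platform annotation, in which 29456 probes had 1 symbol, 760 several, and 8251 were unlisted; the Entrez identifiers of 28735 were found in RefSeq, which changed 0 symbols.

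Each probe with at least 2 values per group was fitted on its own (36465 probes) in R 4.3.3 with limma 3.58.1 (lmFit, eBayes), two-sided, without block or normalization, with Benjamini-Hochberg adjustment at 0.05. SE is the moderated standard error, SD the spread of 3 arrays, and folds are 2 to the power of the difference. The number of arrays limits the precision. The fit was run on simulated data with independent noise at each probe. Those data held no sets of arrays, array shifts or missing values, so they cannot show how the fit behaves here. The genes and lists were chosen with earlier results of these data known. Named were all probes of the 8 genes, the 6 orientation targets, from each list the 3 unmarked probes with the smallest p and any that passed, and the 3 nearest probes to Myod1, Myog and Mstn. Promoter sequences are RefSeq's (GRCm38.p6); the array's own build is not given. The p-values of the fit without block set each difference against a moderated spread between these samples. They take the 6 arrays as independent, although 2 sets of arrays were seen in the values.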

Additional observations from a re-analysis of the deposited data

How the results depend on the processing

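The limits are 3 arrays per group, unequal numbers of missing values per array, an inferred scale and direction, missing values at Myf6 and Mstn, and scattered values at Myf5. Whether the replicate numbers pair the arrays is not settled. Deviations of same-numbered arrays from their group means correlated at 0.284, -0.123 and 0.255. Those of other-numbered arrays ran from -0.403 to 0.284, and with 3 arrays per group these values cannot decide it. With the replicate numbers as a block, the probes of the 8 genes gave 0 adjusted calls. By unadjusted p, 1 was higher and 1 lower, and Myog had a limma adjusted p of 0.699. The count of all probes called, 0 as deposited, was 2 with values on all 6 arrays, 1 without values beyond 10 in size, 44 without low-signal probes, from 0 to 140 without 1 array, and, added after seeing the data, 1 without low-signal probes after median centring and from 0 to 1297 without low-signal probes and 1 array. The 140 and the 1297 were without dexamethasone replicate 1. For the 8 genes the count stayed 0 except for 2 (Myog and Mef2c probe mMC023879) without low-signal probes and dexamethasone replicate 1. For the 5 programme lists it was 3 without low-signal probes and from 0 to 2 without 1 array.

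At an unadjusted p under 0.05, the 3 higher probes became 1 (Myog) with the array sets as a block, after median centring with or without low-signal probes and after quantile normalization, and ran from 1 to 3 without 1 array and from 1 to 4 when low-signal probes were left out too. The 2 lower probes became 1 with the array sets as a block and after median centring, and 0 after averaging per gene, and ran from 0 to 2 without 1 array (0 without vehicle replicate 1 or 3) and from 1 to 2 without low-signal probes and 1 array. The 4 probes higher without overlap became 2 after either normalization and ran from 4 to 6 without 1 array; the 2 lower ran from 2 to 4, with 4 without dexamethasone replicate 1 or vehicle replicate 1. The cause was not tested.

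Signs turned for Mef2a mMA032357 (0.003) and Myf5 (-0.97) within the set of dexamethasone 1, vehicle 1 and vehicle 2; Mef2a mMA035342 without dexamethasone replicate 2 (0.029; from -0.239 to 0.029 without 1 array); Mef2a mMR028409 without dexamethasone replicate 3 (0.01) or vehicle replicate 3 (0.001; from -0.081 to 0.01 without 1 array); Mef2d mMC020548 after median centring (-0.18) and quantile normalization (-0.064); Mef2d mMC025963 after median centring (-0.029), with or without low-signal probes; and Mef2c mMA034537 averaged with its gene (-0.34). Among glucocorticoid targets, Tsc22d3 mMC003752 turned with array weights (-0.11), after median centring (-0.26) and without dexamethasone replicate 1, dexamethasone replicate 2 or vehicle replicate 3 (-0.58, -0.19 and -0.04; from -0.582 to 0.923 without 1 array), and Zbtb16 with array weights (0.085). The contrast among Mef2c probes ran from 1.03 to 1.30 without 1 array and was 1.92 after quantile normalization. The robust prior changed no count of calls.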
